A study of Mus musculus with 66 samples.

Results

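RNA made in the first minutes after Myc activation was compared between 2 groups of 4-thiouridine (4sU) labelled libraries, 3 taken after 20 min of 4-hydroxytamoxifen (OHT) and 3 taken at 0 min. These 6 libraries are 6 of the 66 in the series and were chosen by the RNA kind and time in their titles. Both groups came from 3T9-MycER cells, mouse embryonic fibroblasts (E13.5) whose own c-myc alleles are floxed and which carry the infected pBabe MycER construct. MycER is Myc joined to the hormone-binding part of the oestrogen receptor. The 20 min cells received 400 nM OHT, while the labels of the 0 min libraries name neither OHT nor a vehicle. All 6 were labelled with 300 µM 4sU for 10 min, and the labelled RNA was biotinylated and pulled down on streptavidin. The p-values rest on how far libraries of the same time differ, a spread estimated per gene over all 33 libraries of a table and moderated across genes. The labels name no separate cultures, so that spread may be technical. The infected population was kept under zeocin after thawing and grown without it for the experiments, and the promoter that drives the construct and the state of the floxed alleles are not known from the labels.

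Myc is a transcription factor that binds DNA as a pair with Max, with a preference for the E-box CACGTG and its variants. It is known in fibroblasts for raising genes of ribosome production, nucleotide synthesis and nutrient uptake. MycER is present before OHT is added and moves into action when the drug binds, so early changes can be followed within minutes. Because introns are removed soon after they are made, intron reads of 4sU-labelled RNA come mostly from RNA that is still being made or spliced. Exon reads come from the same precursor and also from RNA already spliced.

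The deposited values summed to 33254079 to 37613458 per library in introns and 12781662 to 13806462 in exons over the 6 libraries, and introns held 70.7% to 74.6% of the labelled total. Fibroblast markers were high: the 11 of 15 that could be tested summed to 80490 to 86160 intron units at 20 min, against 85290 to 96180 at 0 min, led by Col1a2 and with Thy1, Dcn, Lum and Fap not among them. Of 12 immune markers 4 were tested, and they summed to 151 to 191 at 20 min against 106 to 177 at 0 min. Their exons summed to 292.7 to 346.8 at 20 min against 242.7 to 262.1 at 0 min, groups that do not overlap. Cd68 was the highest in these sums. No immune marker was called by limma in introns or exons, although 2 of the 4 had an unadjusted p under 0.05 in each. The median log2 change of the 4 was -0.34 in introns and 0.32 in exons, so the list did not move in a single direction. None of 10 epithelial markers was tested, and 2 of 8 endothelial and 2 of 9 muscle markers were. Neural markers summed to 3631 to 5209 at 20 min against 3784 to 5879 at 0 min, nearly all of it Map2. Of its 4 tested members Tubb3 was called higher, with 154, 150 and 134 at 20 min, against 97.9, 55.3 and 93.3 at 0 min, and Sox10 was called higher at values of 9.92, 7.14 and 3.90 at 20 min, against 2.02 and 2 libraries listed at 0 at 0 min; the part of other cells in the results was not tested. In bulk RNA a smaller share of a cell type and less RNA per cell cannot be told apart. No spike-in is described, so every change is relative to the typical gene of the same library.

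Promoters of 4 named genes are shown because Myc and Max are known to bind the E-box CACGTG and its variants. P2ry2 rose and holds CACGTG near its start, Dusp2 rose and holds both CACGTG and the variant CACGCG, Ccng2 fell and holds the variant, and Nr1d1 rose and holds neither in its window. The Nr1d1 window does hold a further variant, CACATG, which is not put in capitals in any window. Among the genes named for the largest intron or exon changes, these motifs occurred in both rises and falls. The rises Dyrk3, St6galnac4 and Spry1 hold CACGCG too, while Rasl11a, Slc30a1, Glul, Rita1 and Creb3l3 hold neither CACGTG nor CACGCG. The falls Cdkn2c (1 of its windows) and Zfp947 hold CACGTG. The other falls with a window, apart from Ccng2, hold neither. Each window runs from 250 bases before to 50 bases after a transcription start in RefSeq (GRCm38.p6), is given 5′ to 3′ on the strand of the gene, and has in capitals CACGTG as well as CACGCG and its reverse complement CGCGTG. The P2ry2 window is chr7:101011949-101012248 on the minus strand, the Dusp2 window chr2:127335909-127336208 on the plus strand, the Ccng2 window chr5:93267323-93267622 on the plus strand and the Nr1d1 window chr11:98775328-98775627 on the minus strand.
P2ry2: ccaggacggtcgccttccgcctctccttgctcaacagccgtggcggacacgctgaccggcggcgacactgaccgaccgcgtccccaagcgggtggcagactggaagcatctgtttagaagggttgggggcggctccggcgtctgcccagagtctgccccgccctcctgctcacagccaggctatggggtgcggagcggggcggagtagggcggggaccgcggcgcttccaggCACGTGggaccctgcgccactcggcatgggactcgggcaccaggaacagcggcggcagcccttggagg
Dusp2: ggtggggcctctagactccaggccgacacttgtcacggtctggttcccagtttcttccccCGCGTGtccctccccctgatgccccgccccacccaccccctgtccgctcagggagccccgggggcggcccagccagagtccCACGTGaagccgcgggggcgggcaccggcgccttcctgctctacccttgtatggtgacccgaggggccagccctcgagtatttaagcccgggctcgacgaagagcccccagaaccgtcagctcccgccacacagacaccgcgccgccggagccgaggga
Ccng2: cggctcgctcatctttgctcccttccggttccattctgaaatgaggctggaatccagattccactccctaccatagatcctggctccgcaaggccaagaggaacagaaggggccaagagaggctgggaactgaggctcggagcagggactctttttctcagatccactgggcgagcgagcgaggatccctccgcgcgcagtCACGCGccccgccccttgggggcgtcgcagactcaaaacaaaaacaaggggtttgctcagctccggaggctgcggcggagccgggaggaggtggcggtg
Nr1d1: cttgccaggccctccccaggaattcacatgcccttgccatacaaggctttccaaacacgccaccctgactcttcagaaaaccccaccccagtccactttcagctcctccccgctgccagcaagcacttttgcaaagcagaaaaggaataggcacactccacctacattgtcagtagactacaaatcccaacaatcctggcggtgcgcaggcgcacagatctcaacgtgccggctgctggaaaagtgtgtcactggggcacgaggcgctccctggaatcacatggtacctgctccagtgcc

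Within 20 min of OHT, intron values of labelled RNA had changed for many of the 11501 genes tested. A gene is called where limma gives an adjusted p under 0.05 with Benjamini-Hochberg adjustment over all genes. There were 1904 genes higher (16.6%) and 1565 lower (13.6%), and the median change over all genes was a log2 value of -0.01. Most changes were small: the median log2 change was 0.41 among the higher and -0.36 among the lower genes. Rises reached further than falls, with 124 genes (1.08%) up by a log2 change of at least 1, which is 2-fold, against 12 genes (0.104%) down by as much. The split depended on the scaling, and library sums in place of trimmed means gave 1579 higher and 1921 lower. Genes with the largest changes, by a rule that asked for a mean value of at least 50 in the higher group and groups that do not overlap, are described below by what they do. The separation of groups in these genes, and in the exons of genes named from exons, follows from that rule and is no further support.

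Xkr8, a membrane protein that moves lipids between the leaflets of the cell membrane when apoptotic enzymes cut it, had the largest rise by that rule. Its scaled intron values were 235, 212 and 247 at 20 min, against 51.5, 37.5 and 23.8 at 0 min. All 3 libraries at 20 min lay far above those at 0 min, and the log2 change was 2.65 ± 0.17 (standard error, limma adjusted p = 1.61e-13). Nr1d1 encodes REV-ERB alpha, a haem-binding nuclear receptor that represses clock genes. Its values were 1161, 953 and 1090 at 20 min, against 192, 182 and 150.3 at 0 min, again with no overlap, and its log2 change was 2.61 ± 0.14 (limma adjusted p = 2.42e-15). On the mm9 genome Nr1d1 lies at chr11:98629246-98636647 on the minus strand, and Thra overlaps it by 1.07 kb on the opposite strand. Whether counting used strand is not given in the sources used here, and Thra itself changed by 0.29 on the log2 scale without being called. Annotated genes on the opposite strand also overlap many genes described further on, so reads of such pairs may be mixed. The overlap is 26.5 kb for Slc7a5, 23.4 kb for Cry2, 19.4 kb for Ppat, 9.32 kb for Srf, 96.5 kb for Lrrc4c, 20.1 kb for Fgf10 and 6.92 kb for H3f3a, and smaller for Glul, St6galnac4, Rrp9, Bop1, Ccne2, Ccnd2, Cdk4, Cdc25c, Egr1, Fosl1, Hk2, Mlxip, Ndrg1, Nusap1, Polr1e, Shmt1, Gabpb2, Bcl3 and Zfp456. Glul, Tubb3 and Zmat1 also overlap an annotated gene on their own strand.

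A pair of receptor genes and a GTPase gene gave further large rises. P2ry2 encodes a G protein-coupled receptor for extracellular ATP and UTP, at chr7:108145086-108160505 of mm9 on the minus strand. It had 257, 139.8 and 207 at 20 min, against 46.4, 25.7 and 31.1 at 0 min. The spread was wide at 20 min. Its lowest 20 min library lay above its highest 0 min library, as the rule required, and the log2 change was 2.51 ± 0.20. Adora2b, a receptor for adenosine, had 185, 115 and 163 at 20 min, against 87.8, 58.2 and 27.0 at 0 min, a log2 change of 1.53 ± 0.24. Rasl11a, a small GTPase of the Ras superfamily, had 80.3, 63.3 and 60.4 at 20 min, against 19.2, 11.8 and 10.4 at 0 min. All 3 of its 20 min values were above all 3 at 0 min, and the log2 change was 2.26 ± 0.21. The list of receptor and G protein signalling genes as a whole did not lean one way, with 5 of 24 higher and 3 lower, beside 16.6% and 13.6% over all genes, and a median of -0.06.

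Transport and metabolism gave the next group. Slc30a1 encodes ZnT1, the zinc exporter of the cell membrane, and had 203, 156 and 137 at 20 min, against 41.4, 27.6 and 38.4 at 0 min (log2 change 2.18 ± 0.19). An annotated gene on the opposite strand, 1700034H15Rik, overlaps it by 0.761 kb and changed by 2.07 on the log2 scale, and without strand their reads cannot be told apart. Glul, glutamine synthetase, rose to 563, 534 and 546 at 20 min, against 167, 106 and 115 at 0 min, with a log2 change of 2.10 ± 0.11 (limma adjusted p = 2.42e-15). Dgat2, which makes triglycerides from diacylglycerol, had 638, 607 and 709 at 20 min, against 224, 145 and 171 at 0 min, a log2 change of 1.87 ± 0.11. St6galnac4 adds sialic acid to O-linked sugars. It had 1166, 1098 and 1222 at 20 min, against 355, 314 and 227 at 0 min, and a log2 change of 1.98 ± 0.10. In each of these 4 genes the lowest 20 min library was above the highest 0 min library.

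The other large rises were in a kinase, a transcription factor, a membrane-shaping protein and a Notch regulator. Dyrk3, a kinase that dissolves stress granules, had 795, 609 and 700.4 at 20 min, against 231, 167 and 139.9 at 0 min (log2 change 1.99 ± 0.17). Klf16, a zinc finger transcription factor, had 2244, 2098 and 2378 at 20 min, against 756, 679 and 558 at 0 min (log2 change 1.76 ± 0.11), with narrow groups that stand far apart. Reep6, a shaper of the endoplasmic reticulum, changed by 2.13 ± 0.18 on values of 80.3, 110.2 and 84.8 at 20 min, against 25.2, 16.8 and 18.7 at 0 min. Rita1, which binds RBPJ and takes it out of the nucleus, changed by 1.91 ± 0.23 on the log2 scale from low values, 60.5, 75.5 and 70.1 at 20 min against 28.3, 9.87 and 18.7 at 0 min. Iqcd overlaps Rita1 by 12.8 kb on the opposite strand and itself changed by 0.54. All 12 rises kept their call when any single library of either group was left out.

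**Figure D1:**
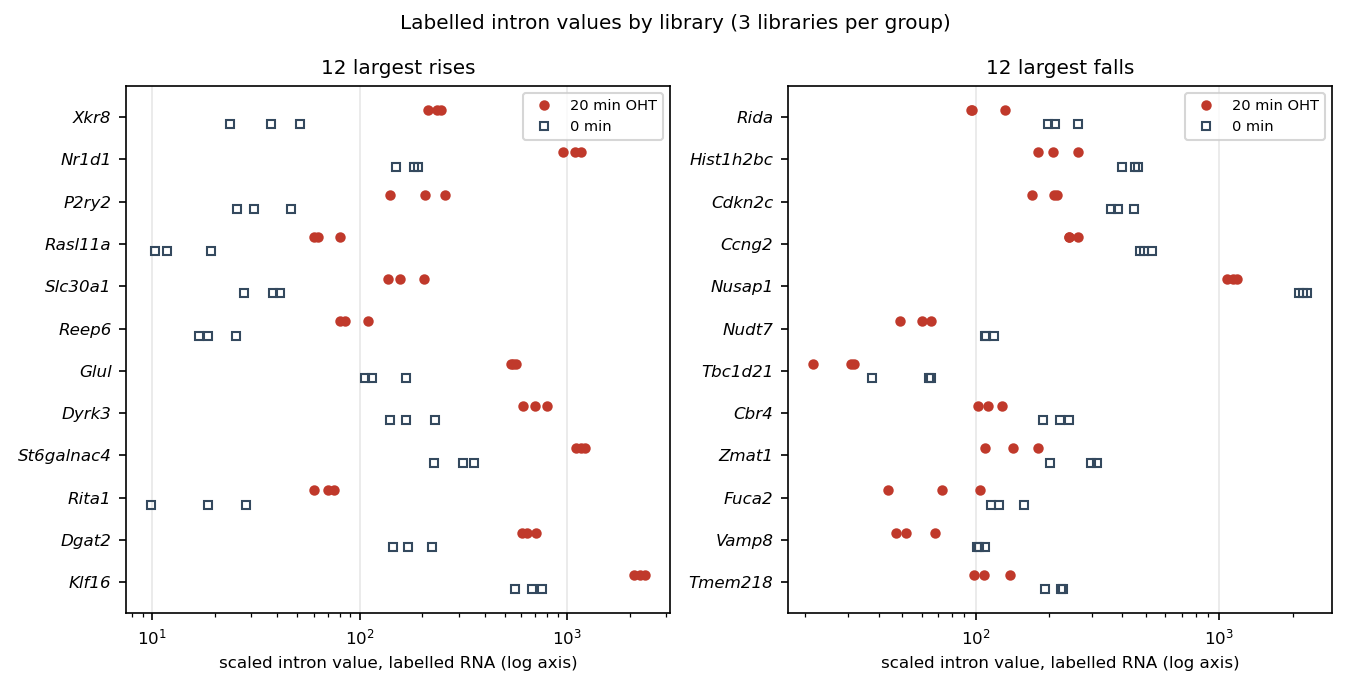
Scaled intron values (log axis) of each of the 3 labelled libraries at 20 min (filled circles) and the 3 at 0 min (open squares) for 12 large rises and 12 large falls. The groups separate in every gene shown, since the rule that chose them asked for it; P2ry2 spans 139.8 to 257 at 20 min, against 25.7 to 46.4 at 0 min.

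Falls were smaller, and 3 of the 12 named genes act in the cell cycle. Cdkn2c encodes p18INK4c, an inhibitor of the G1 cyclin-dependent kinases, and had 210.2, 216 and 171 at 20 min, against 360.4, 447 and 385 at 0 min. Every 20 min library was below every 0 min library, with a log2 change of -1.0 ± 0.14 (limma adjusted p = 9.40e-07). Ccng2, cyclin G2, is an unusual cyclin that rises in arrested cells and slows the cycle. The gene lies at chr5:93696283-93705257 of mm9 on the plus strand and fell to 242, 242 and 262 at 20 min, against 489.6, 528 and 473 at 0 min, a log2 change of -1.0 ± 0.14 (limma adjusted p = 2.52e-06). Nusap1 bundles the microtubules of the mitotic spindle. It had 1137, 1186 and 1081 at 20 min, against 2120, 2298 and 2211 at 0 min, a log2 change of -0.96 ± 0.08 with the smallest adjusted p of the 12 falls (7.26e-11, limma). Hist1h2bc, a gene for the core histone H2B, had 207, 181 and 263 at 20 min, against 452, 464 and 397 at 0 min (log2 change -1.02 ± 0.14). Near-identical histone genes may share its reads, so its value is uncertain.

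Several falls were in small genes of metabolism and membrane traffic. Rida, a deaminase that clears reactive enamines, had 132, 96.9 and 95.5 at 20 min, against 198, 264 and 213 at 0 min, a log2 change of -1.05 ± 0.19. Nudt7, a peroxisomal hydrolase of coenzyme A, had 60.5, 65.3 and 48.7 at 20 min, against 119, 111 and 109 at 0 min, and Cbr4, a mitochondrial reductase of fatty acid synthesis, had 129, 102 and 112 at 20 min, against 189.8, 243 and 222 at 0 min. Their log2 changes were -0.95 ± 0.18 and -0.93 ± 0.15. Vamp8, a SNARE protein of endosomes and lysosomes, changed by -0.91 ± 0.22, and Fuca2, a secreted fucosidase, by -0.92 ± 0.21. Tmem218, a membrane protein of the cilium, changed by -0.91 ± 0.16, and Zmat1, a zinc finger protein, by -0.92 ± 0.22. Tbc1d21, a Rab GTPase regulator known from testis, was the weakest of the 12, at 30.7, 31.6 and 21.4 at 20 min, against 65.6, 37.5 and 64.3 at 0 min. It was no longer called without replicate 3 of 20 min (log2 change -0.78), without replicate 1 of 0 min (-0.81) or without replicate 3 of 0 min (-0.83), while the other 11 falls kept their call without any 1 library.

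Exons of labelled RNA changed in far fewer genes: 385 of 11475 were higher (3.36%) and 78 lower (0.68%), of which 34 (0.296%) and 2 (0.0174%) reached a log2 change of 1 in size. Intron and exon values come from the same libraries, so the following values stand side by side and are not independent of each other. Leaving out replicate 3 of 0 min gave 220 higher and 35 lower exon calls. The lower count was also 34 without replicate 3 of 20 min and 29 without replicate 2 of 0 min. With the deposited values used without further scaling there were 238 higher and 152 lower, a share of higher calls of 61% beside 83.2%.

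Nr1d1 had the largest exon rise too, with 1361, 1174 and 1247 at 20 min, against 349, 285 and 264 at 0 min and a log2 change of 2.08 ± 0.11 (limma adjusted p = 1.22e-15). Slc30a1 changed by 1.77 ± 0.13 and P2ry2 by 1.60 ± 0.23 in exons. Dusp2, a phosphatase of the nucleus that switches off ERK, joined them with 162, 208 and 209 at 20 min, against 58.0, 72.5 and 54.6 at 0 min and a log2 change of 1.63 ± 0.13 (limma adjusted p = 4.07e-11). Spry1, a brake on growth factor receptors, had 271, 314 and 299 at 20 min, against 99.6, 114 and 82.3 at 0 min (log2 change 1.58 ± 0.13). Creb3l3, a membrane-bound transcription factor of the endoplasmic reticulum known from liver, had 68.7, 63.9 and 57.6 at 20 min, against 29.99, 16.1 and 17.6 at 0 min (log2 change 1.58 ± 0.23). For these 3 genes introns changed by 1.74, 1.66 and 1.19, and the intron to exon ratio was not called in any of them.

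Exon falls named by the rule were 6. The zinc finger genes Zfp429, Zfp456 and Zfp947 have low values and belong to a family of close relatives that may share reads. Zfp429 exons had 77.6, 50.9 and 24.3 at 20 min, against 108, 91.6 and 113 at 0 min. Zfp456 exons had 56.7, 54.9 and 45.5 at 20 min, against 99.6, 91.6 and 93.4 at 0 min. Zfp947 exons had 145, 124 and 114 at 20 min, against 173, 195 and 221 at 0 min. In the mm9 annotation used for gene spans, Zfp456 and Zfp953 overlap by 15.4 kb on the same strand. In Zfp429, Zfp456 and Zfp947 the exon groups do not overlap, as the rule required. Introns of these genes were lower too, with log2 changes of -0.88, -0.77 and -0.81. The exon call of Zfp429 was lost without replicate 3 of 20 min (log2 change -0.71), and that of Zfp947 without replicate 2 or 3 of 20 min (-0.60 and -0.54) or replicate 2 or 3 of 0 min (-0.62 and -0.53). Ccng2 exons fell to 285, 259.7 and 232 at 20 min, against 387, 428 and 437 at 0 min, a log2 change of -0.69 ± 0.16 (limma adjusted p = 0.00844). That call was lost without replicate 3 of 20 min (-0.61) or of 0 min (-0.66). Lrrc4c, a netrin-G ligand of synapses, had 35.8, 37.0 and 38.4 at 20 min, against 73.5, 60.4 and 74.9 at 0 min, and was not called without replicate 1 of 20 min (-0.86) or replicate 1 or 3 of 0 min (-0.85 and -0.83).

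Among these exon falls Shf and Lrrc4c had no intron call. Lrrc4c introns had 1235, 1703 and 1562 at 20 min, against 1586, 1967 and 1939 at 0 min, with groups that overlap, a change of -0.29 ± 0.17, and its ratio change of 0.58 ± 0.21 did not pass. Shf encodes an SH2 domain adaptor, and its exons had 72.6, 75.9 and 75.8 at 20 min, against 110.3, 126 and 143 at 0 min, while its introns had 634, 673 and 484 at 20 min, against 572, 535 and 625 at 0 min. The exon change was -0.74 ± 0.15 and the intron change 0.04 ± 0.11, and the intron to exon ratio rose by 0.78 ± 0.16 on the log2 scale (limma adjusted p = 0.00233). Exon values of Shf were tight at 20 min and, as the rule required, did not overlap those at 0 min, whereas the intron groups did overlap.

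Levels of different genes can be compared only per length, which the deposited RPKM values allow. In exons Nr1d1 averaged 10 ± 0.808 RPKM at 20 min, against 2.46 ± 0.349 RPKM at 0 min (SD, n = 3 each). P2ry2 exons averaged 0.35 ± 0.117 RPKM at 20 min, against 0.112 ± 0.023 RPKM at 0 min, and Rrp9 exons 20 ± 0.458 RPKM at 20 min, against 13.3 ± 1.68 RPKM at 0 min. Per length P2ry2 was thus far lower than the others in both groups. In introns the averages were 4.78 ± 0.552 RPKM at 20 min, against 0.77 ± 0.109 RPKM at 0 min for Nr1d1, 0.344 ± 0.104 RPKM at 20 min, against 0.0577 ± 0.0179 RPKM at 0 min for P2ry2 and 5.27 ± 0.426 RPKM at 20 min, against 1.64 ± 0.246 RPKM at 0 min for Rrp9. Among the falls Ccng2 introns averaged 0.855 ± 0.0578 RPKM at 20 min, against 1.68 ± 0.137 RPKM at 0 min, and Nusap1 introns 0.822 ± 0.019 RPKM at 20 min, against 1.58 ± 0.0907 RPKM at 0 min.

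**Figure D2:**
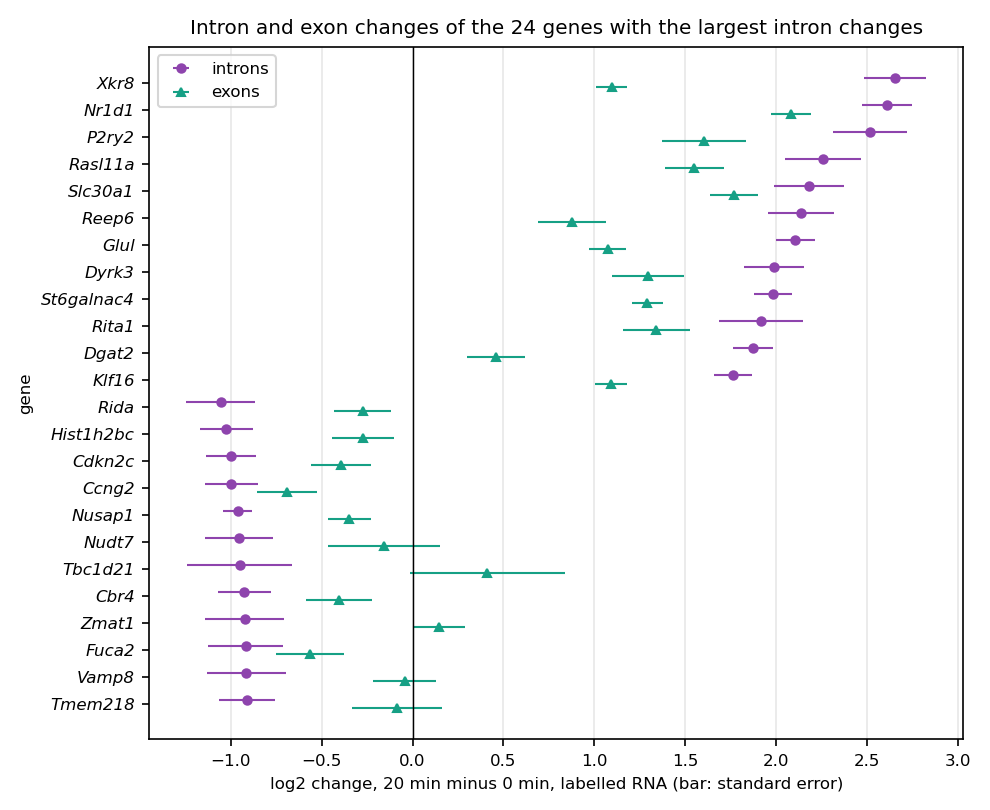
Log2 change from 0 min in introns (circles) and exons (triangles) of labelled RNA at 20 min, with standard errors, for the 12 largest intron rises and 12 largest intron falls. All 12 rises lie right of 0 in exons too, from 0.46 for Dgat2 to 2.08 for Nr1d1, while among the falls only the exon change of Ccng2 passed the test.

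Within libraries, the ratio of introns to exons was higher at 20 min for 801 of 11463 genes (6.99%) and lower for 276 (2.41%). Dgat2 is an example, since its intron change of 1.87 stood beside an exon change of 0.46 ± 0.16 that missed the test, and its ratio rose by 1.42 ± 0.16 (limma adjusted p = 2.78e-06). The ratio of Xkr8 rose by 1.53 ± 0.16, that of Reep6 by 1.23 ± 0.23 and that of Glul by 1.03 ± 0.10. For Slc30a1 it changed by 0.39 ± 0.20 and did not pass. Ratio calls depended on the libraries used. The 6 libraries alone gave 154 higher and 29 lower, and there were 450 higher and 95 lower without replicate 3 of 20 min and 482 and 95 without replicate 3 of 0 min.

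Regulators of signalling and transcription that answer within minutes were examined as groups. Of 22 immediate early transcription factors tested, 7 were higher in introns and none lower, beside 16.6% and 13.6% over all genes, with a median of 0.54 beside -0.01. Nr4a3, an orphan nuclear receptor, had 26.8, 45.9 and 39.9 at 20 min, against 20.2, 11.8 and 21.8 at 0 min (log2 change 1.04 ± 0.26). Srf, the serum response factor, had 913, 1038 and 1130 at 20 min, against 638, 602 and 653 at 0 min (log2 change 0.70 ± 0.15). Fosl1, the AP-1 factor FRA1, changed by 0.57 ± 0.17, a call lost without replicate 3 of 20 min (0.50) or replicate 2 of 0 min (0.49). Fos and Egr1, the best known members of the list, did not pass. Fos had 6.94, 8.16 and 19.5 at 20 min, against 6.06, 6.91 and 7.26 at 0 min. Egr1 had 45.6, 124 and 153 at 20 min, against 56.5, 62.2 and 90.2 at 0 min. Their groups overlap, with log2 changes of 0.56 ± 0.90 and 0.48 ± 0.46. Egr1 exons varied as widely, 527, 1754 and 2159 at 20 min against 648, 841 and 1049 at 0 min. Scaling by library sums gave 5 higher calls in the list, and neither of the other scalings gave a lower one.

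Feedback inhibitors of the MAP kinase pathway held 4 higher genes of 17 tested and none lower, near the 16.6% higher over all genes, with a median of 0.26. Dusp2 introns had 35.7, 44.9 and 49.7 at 20 min, against 16.2, 10.9 and 10.4 at 0 min (log2 change 1.74 ± 0.29). Spry1 introns had 188, 194 and 198 at 20 min, against 71.7, 66.1 and 46.7 at 0 min (log2 change 1.66 ± 0.16). Dusp7, a cytoplasmic ERK phosphatase, had 676, 612 and 560.1 at 20 min, against 337, 267 and 265 at 0 min (log2 change 1.09 ± 0.11). No group overlapped, and Spry1 was the tightest, with 20 min libraries spanning 188 to 198. Dusp6, another ERK phosphatase, changed by 0.26 and was not called, and neither were Spry2 (0.21) and Spry4 (0.23).

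Most circadian clock genes were higher. Of 17 tested, 12 were higher and none lower in introns, beside 16.6% and 13.6% over all genes, with a median of 0.70. In exons 8 were higher, beside 3.36% of all genes there. The intron count was 12 under both other scalings as well. After Nr1d1 came the related receptor gene Nr1d2, which had 5819, 5447 and 6006 at 20 min, against 3020, 2501 and 2238 at 0 min (log2 change 1.16 ± 0.09). Cry2, a cryptochrome repressor, had 2534, 1837 and 2039 at 20 min, against 1368, 1109 and 1134 at 0 min (log2 change 0.82 ± 0.10). Bhlhe41, a repressor that binds E-boxes, had only 15.9, 8.16 and 27.3 at 20 min, against 6.06, 9.87 and 2.07 at 0 min (log2 change 1.40 ± 0.43). The PAR bZIP factor Tef changed by 0.91, and the period gene Per2 by 0.70. The activators Clock and Arntl changed by -0.04 and 0.01 and were not called.

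Within the network of Myc partners and rivals, 4 of 9 tested genes were higher and none lower, beside 16.6% and 13.6% over all genes. The median was 0.18. Max, the partner of Myc, had 6363, 7149 and 7434 at 20 min, against 3782, 3816 and 3379 at 0 min, with a log2 change of 0.93 ± 0.07 (limma adjusted p = 1.61e-11). Its exons were 861, 802 and 838 at 20 min, against 632, 637 and 642 at 0 min, a change of 0.39 ± 0.06. Mnt, a Max partner that represses, had 1517, 1384 and 1333 at 20 min, against 898, 758 and 689 at 0 min (log2 change 0.86 ± 0.11). Mlxip, the glucose-sensing relative MondoA, had 6739, 7173 and 7665 at 20 min, against 4055, 3758 and 3795 at 0 min (log2 change 0.89 ± 0.06). Myc itself did not pass: its introns had 1405, 1253 and 1452 at 20 min, against 1400, 1142 and 1353 at 0 min (log2 change 0.08 ± 0.19, limma adjusted p = 0.793). Its exons changed by 0.14 ± 0.16, and whether reads of the MycER construct count there is not given.

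Ribosome biogenesis had the highest share of rises among the lists with at least 9 tested members. Of 47 ribosome biogenesis genes tested, 40 were higher in introns and none lower, against 16.6% higher over all genes, and the median change was 0.42. Rrp9, a protein of the U3 particle that processes ribosomal RNA, had 1636, 1562 and 1752 at 20 min, against 609.7, 454 and 503 at 0 min (log2 change 1.67 ± 0.10, limma adjusted p = 5.74e-14). Bop1, which matures the large subunit, had 5096, 5364 and 5451 at 20 min, against 2394, 1888 and 2076 at 0 min (log2 change 1.33 ± 0.08). Rrp1b, a nucleolar protein, had 8608, 8457 and 9037 at 20 min, against 5292, 4640 and 4414 at 0 min (log2 change 0.87 ± 0.06). All 3 genes had groups that do not overlap. Ncl, nucleolin, had 9426, 7896 and 9163 at 20 min, against 5921, 6042 and 5058 at 0 min (log2 change 0.64 ± 0.09). In exons 12 of the 47 were higher, beside 3.36% of all genes, with a median of 0.16, and Ncl exons changed by 0.19 ± 0.09 without passing. Library sums gave 35 intron calls and no further scaling 36; in exons they gave 11 and 7.

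Many genes of the polymerases that make ribosomal and transfer RNA were higher. Of 36 genes of RNA polymerases I and III and their factors, 19 were higher and 4 lower, beside 16.6% and 13.6% over all genes. The median was 0.21. Polr1b, the second largest subunit of polymerase I, had 5018, 4822 and 5342 at 20 min, against 2990, 2868 and 2512 at 0 min (log2 change 0.86 ± 0.06), and Polr1e changed by 1.07 ± 0.08. The 4 lower ones were Polr3c (-0.24), Gtf3c3 (-0.26), Polr3gl (-0.39) and Ttf1 (-0.42). Polr3gl is the alternative to Polr3g in polymerase III, and Polr3g itself was higher by 0.63. Genes of RNA polymerase II pausing and elongation were higher in 11 of 28 and lower in 2, a median of 0.09, with Cdk9, the kinase that releases paused polymerase, at 0.54 ± 0.09.

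Ribosomal protein genes were nearly all uncalled. Rplp2 alone of 65 was called higher, at 0.23 ± 0.09, and the median of the 65 was 0.06. Its call was lost under either other scaling (0.19 with library sums, 0.25 with none) and without any 1 library except replicate 1 of 0 min (0.17 to 0.26). Rpl36 became called higher with no further scaling (0.52), without replicate 2 of 20 min (0.60) and without replicate 1 of 0 min (0.70). Rps4x became called without replicate 2 of 20 min (0.25). Of 37 translation factors 23 were higher and none lower in introns, beside 16.6% and 13.6% over all genes, with a median of 0.24. Eif4ebp2, which restrains the cap-binding protein, had 3666, 3699 and 3896 at 20 min, against 2080, 1966 and 2064 at 0 min (log2 change 0.88 ± 0.07). Eif4e, the cap-binding protein, had 16980, 16800 and 18450 at 20 min, against 11180, 12480 and 10630 at 0 min (log2 change 0.61 ± 0.07). Eif3b changed by 0.72 ± 0.07. In exons no translation factor was called by limma, and 4 had an unadjusted p under 0.05. Of 20 cytosolic tRNA synthetases 7 were higher and 1 lower, a median of 0.12. Farsa, for phenylalanine, changed by 0.70 ± 0.08 and Aars, for alanine, by -0.25 ± 0.08. With library sums 4 were lower.

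Many genes that supply building blocks were higher in introns. For purine and pyrimidine synthesis 17 of 27 were higher and none lower, beside 16.6% and 13.6% over all genes, with a median of 0.30. Ppat, which commits to purine synthesis, had 11800, 11750 and 12940 at 20 min, against 6248, 5863 and 5481 at 0 min (log2 change 1.05 ± 0.06). Uck2, a kinase of uridine and cytidine, had 12080, 12510 and 13340 at 20 min, against 8222, 7270 and 7373 at 0 min (log2 change 0.73 ± 0.06). Cad, the first enzyme of pyrimidine synthesis, changed by 0.52 ± 0.09 and Hprt, of purine salvage, by 0.48 ± 0.07. The ribonucleotide reductase genes Rrm1 (-0.03) and Rrm2 (-0.18) were not called. Polyamine genes were higher in 6 of 12 and lower in 1, a median of 0.32. Odc1, the rate-limiting enzyme, had 1552, 1301 and 1552 at 20 min, against 1171, 1034 and 938 at 0 min (log2 change 0.49 ± 0.12), with an exon change of 0.05 ± 0.09. Sms, spermine synthase, changed by 0.70 ± 0.06 and Amd1, which supplies its aminopropyl groups, by 0.64 ± 0.06. Smox, which breaks spermine down, was the lower one at -0.48, and library sums gave 3 lower.

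Uptake and energy genes were more often higher than lower. Amino acid transporters were higher in 9 of 18 and lower in 1, beside 16.6% and 13.6% over all genes, with a median of 0.34. Slc7a5, the large neutral amino acid transporter, had 8639, 7488 and 7878 at 20 min, against 3799, 3097 and 2887 at 0 min (log2 change 1.30 ± 0.10). Slc7a1, for arginine and lysine, had 17390, 18680 and 19900 at 20 min, against 10610, 10910 and 9394 at 0 min (log2 change 0.86 ± 0.07) and an exon change of -0.01 ± 0.07. Tfrc, the transferrin receptor, changed by 1.21 ± 0.09. In glycolysis and lactate transport 8 of 23 were higher and 1 lower, a median of 0.11. Hk2, hexokinase 2, had 10810, 9248 and 10970 at 20 min, against 4911, 4393 and 3840 at 0 min (log2 change 1.24 ± 0.09), and Slc16a1, a lactate transporter, changed by 1.13 ± 0.09. Ldhb was the lower one at -0.63, while Ldha rose by 0.54. Serine and one-carbon enzymes were higher in 7 of 15 and lower in none, a median of 0.12, with the hydroxymethyltransferase Shmt1 at 0.80 ± 0.10 and Psat1, of serine synthesis, at 0.60 ± 0.06.

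Protein folding and mitochondrial genes were more mixed, and their counts stand beside 16.6% higher and 13.6% lower over all genes. Chaperonin and heat shock genes were higher in 11 of 24 and lower in 1, a median of 0.18, led by Fkbp4, a co-chaperone of HSP90, with 1679, 1567 and 1560 at 20 min, against 715, 636 and 622 at 0 min (log2 change 1.28 ± 0.07). Hsf1, the heat shock regulator, changed by 0.55 ± 0.06. For the mitochondrial ribosome and its transcription 9 of 35 were higher and 2 lower, a median of 0.01, and the other scalings gave 7 and 3 (library sums) or 9 and 0. Mrpl22, a protein of the large mitochondrial subunit, had 1507, 1426 and 1445 at 20 min, against 649, 657 and 599 at 0 min (log2 change 1.2 ± 0.06). Tfb2m, a mitochondrial transcription factor, had 3151, 2844 and 3506 at 20 min, against 1479, 1422 and 1243 at 0 min (log2 change 1.2 ± 0.09). Those 2 stood apart from the next member, Mrpl20, at 0.44 ± 0.08.

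**Figure D3:**
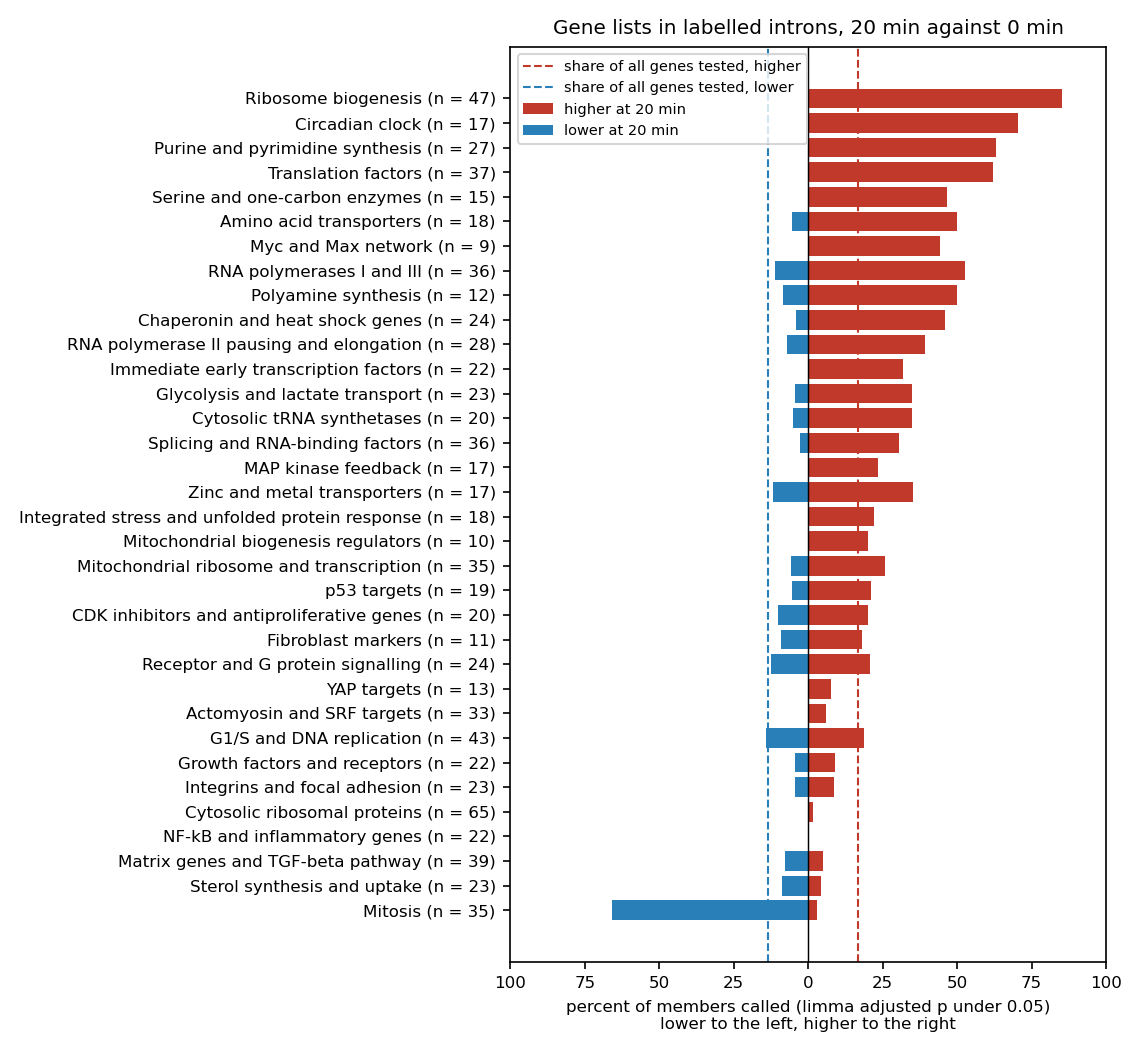
Percent of tested members called higher (bars to the right) and lower (bars to the left) in labelled introns at 20 min against 0 min, for each gene list with at least 9 tested members, with dashed lines at the shares over all genes, 16.6% higher and 13.6% lower. Ribosome biogenesis stands at the top with 40 of 47 higher, and mitosis at the bottom with 23 of 35 lower.

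Mitosis genes were mostly lower. Of 35 mitosis genes 23 were lower and 1 higher in introns, a median of -0.27, against 13.6% lower over all genes. After Nusap1, the phosphatase gene Cdc25c, which triggers entry into mitosis, had 643, 658 and 623 at 20 min, against 1105, 1039 and 1114 at 0 min (log2 change -0.76 ± 0.09). Top2a, the topoisomerase that untangles chromosomes, had 7000, 7011 and 7123 at 20 min, against 10120, 10910 and 10200 at 0 min (log2 change -0.56 ± 0.05, limma adjusted p = 3.42e-10), and its exons changed by -0.26 ± 0.06. The mitotic kinase gene Aurka changed by -0.71 and the proliferation marker Mki67 by -0.49, while the 1 higher gene was Espl1, separase, at 0.28. Exons of the list were lower for 6 of 35, beside 0.68% of all genes. Library sums gave 24 lower intron calls and no further scaling 21, and both gave 9 lower exon calls.

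Over the 43 genes of G1/S and DNA replication 8 were higher and 6 lower, near the shares over all genes, and the median was 0.01. Of the 5 cyclin D and E genes in the list 4 were among the higher ones. Ccnd2, cyclin D2, had 3876, 4171 and 4034 at 20 min, against 2254, 2335 and 2147 at 0 min (log2 change 0.84 ± 0.08). Ccne2, cyclin E2, had 3307, 2682 and 2710 at 20 min, against 1801, 1857 and 1612 at 0 min (log2 change 0.72 ± 0.08), and Ccne1, cyclin E1, changed by 0.64 ± 0.08. Ccnd1, cyclin D1, changed by 0.65 ± 0.13, while Ccnd3, at 0.25 ± 0.16, was not called. The lower ones included Rfc2 (-0.47) and Cdc45 (-0.29), which load and drive the replication machinery. Cdk4 changed by 0.18 ± 0.08 and did not pass (limma adjusted p = 0.0875), although it did without replicate 1 of 0 min (0.23).

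Among 20 CDK inhibitors and antiproliferative genes 4 were higher and 2, Cdkn2c and Ccng2, lower, near the 16.6% and 13.6% over all genes. The median was -0.02. Cdkn2a, the locus of p16INK4a and p19ARF, had 5636, 5659 and 5355 at 20 min, against 3548, 3732 and 3025 at 0 min (log2 change 0.70 ± 0.07). Ndrg1, a stress-induced gene that Myc is known to repress in other cells, had 3708, 3325 and 3024 at 20 min, against 2185, 1880 and 1650 at 0 min (log2 change 0.82 ± 0.11). Cdkn1a, p21, had 14.9, 14.3 and 15.6 at 20 min, against 13.1, 24.7 and 31.1 at 0 min, with groups that overlap, and its change of -0.51 ± 0.39 did not pass. Of 19 p53 targets 4 were higher (21.1%) and 1 lower (5.26%), the higher share near that over all genes, with a median of -0.01. Bax, of the apoptotic pore, changed by 0.48 ± 0.08 and Zmat3, an RNA-binding protein, by 0.50 ± 0.06, while Mdm2, the ligase that degrades p53, was not called (-0.10).

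Few structural and inflammatory genes were called, where 16.6% of all genes were higher and 13.6% lower. Actomyosin genes were higher in 2 of 33 (Srf and the filamin gene Flnc) with a median of 0.10, integrin and adhesion genes in 2 of 23 with 1 lower and a median of 0.03, and YAP targets in 1 of 13 with a median of 0.04. Several of these calls rested on single libraries. Flnc lost its call without replicate 2 of 0 min (0.33). The integrin gene Itgb1, at 0.29 ± 0.09, lost it without replicate 3 of 20 min (0.20) or replicate 1 or 3 of 0 min (0.27 and 0.26). Itga3, the lower integrin gene at -0.25 ± 0.10, lost it with no further scaling (-0.22), without replicate 1 or 2 of 20 min (-0.185 and -0.26) and without replicate 1 or 3 of 0 min (-0.23 and -0.22). F3, tissue factor, was the YAP target called, at 0.42 ± 0.13, and was not called without replicate 1 of 20 min (0.29) or replicate 3 of 0 min (0.36). Library sums gave 2 lower genes each in the actomyosin and adhesion lists. Matrix and TGF-beta genes were higher in 2 of 39 and lower in 3, a median of 0.02. Of the lower genes Sparc, a matrix glycoprotein, had 6081, 5972 and 5201 at 20 min, against 7199, 7464 and 8233 at 0 min (log2 change -0.41 ± 0.09). The collagen gene Col1a2 had 20410, 23170 and 20470 at 20 min, against 26370, 34780 and 27460 at 0 min (log2 change -0.46 ± 0.13), a call lost without replicate 2 of 0 min (-0.34). Col6a1, another collagen gene, changed by -0.63 ± 0.21 and was not called without replicate 1 or 3 of 20 min (-0.53 and -0.59) or replicate 3 of 0 min (-0.53). None of 22 NF-kB and inflammatory genes was called by limma, and 1, Bcl3, had an unadjusted p under 0.05, with a median of -0.04 over the list. Bcl3, an IkB-related cofactor, changed by -0.62 ± 0.29 and was called lower when the 6 libraries were fitted alone (limma adjusted p = 0.0345) and without replicate 2 of 20 min (-0.85). Of the 11 fibroblast markers tested 2 were higher and 1, Col1a2, lower, beside 16.6% and 13.6% over all genes, with a median of -0.06. Twist2, a transcription factor of mesenchymal cells, had 7008, 7945 and 8408 at 20 min, against 4483, 4587 and 4300 at 0 min (log2 change 0.80 ± 0.08). Fbln2, the other higher one, was not called with library sums (0.22) or in a fit of the 6 libraries alone (0.26). It was also lost without replicate 1 or 2 of 20 min (0.23 and 0.25) or replicate 2 or 3 of 0 min (0.15 and 0.24).

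The remaining lists held few large changes, and their counts stand beside 16.6% higher and 13.6% lower over all genes. Of 22 growth factors and receptors 2 were higher and 1 lower, a median of -0.02, with Vegfa, the angiogenic factor, at 2680, 2563 and 2679 at 20 min, against 1974, 1379 and 1441 at 0 min (log2 change 0.74 ± 0.10). Hbegf, a ligand of the EGF receptor, changed by 0.54 ± 0.16 and was not called without replicate 3 of 20 min (0.44). Fgf10, the lower one, changed by -0.30 ± 0.11 and was not called without replicate 1 or 3 of 20 min (-0.29 and -0.25) or replicate 2 or 3 of 0 min (-0.17 and -0.32). Of 36 splicing factors 11 were higher and 1 lower, a median of 0.09, with the splicing regulators Srsf7 at 0.36 ± 0.06 and Tra2b at 0.33 ± 0.07. Library sums gave 7 higher and 2 lower in that list and no further scaling 8 and 1. Stress response genes were higher in 4 of 18, a median of -0.02, among them Asns, asparagine synthetase, at 0.55 ± 0.07, and library sums gave 2. Dnajb9, a chaperone of the endoplasmic reticulum, was not called without replicate 3 of 0 min (0.35), and Xbp1, a factor of the unfolded protein response, was not called with library sums (0.34), without replicate 2 of 20 min (0.299) or without replicate 1 or 2 of 0 min (0.35 and 0.36). Sterol genes were higher in 1 and lower in 2 of 23, a median of 0.04, with Insig2, a brake on sterol synthesis, at -0.51 ± 0.12. Nsdhl, the other lower one, at -0.55 ± 0.21, was not called with no further scaling (-0.525), without replicate 1 or 3 of 20 min (-0.38 and -0.56) or without replicate 2 or 3 of 0 min (-0.35 and -0.596). Of 17 zinc and metal transporters 6 were higher and 2 lower, a median of 0.03, and after Slc30a1 and Tfrc the next was the zinc importer Slc39a7 at 0.52. Histone genes were lower in 3 of 6, a median of -0.38, and one of these, H3f3a at -0.25 ± 0.07, was not called without replicate 3 of 20 min (-0.18). Mitochondrial biogenesis regulators were higher in 2 of 10, a median of 0.01, with the coactivator gene Ppargc1b at 0.72 ± 0.20 (0.52 and not called without replicate 3 of 0 min). Gabpb2, the other one, at 0.20 ± 0.07, was not called with library sums (0.16), without replicate 1 or 3 of 20 min (0.185 and 0.18) or without replicate 2 or 3 of 0 min (0.19 and 0.18).

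Far fewer genes were called at 10 min than at 20 min. At 10 min 60 genes were higher in introns (0.522%) and none lower by limma, with 578 higher and 236 lower at an unadjusted p under 0.05, and no exon call was made in either direction (219 and 153 unadjusted). At 30 min 2504 were higher (21.8%) and 2374 lower (20.6%), and at 1 h 2790 (24.3%) and 2874 (25%). Exon calls were 947 higher (8.25%) and 413 lower (3.6%) at 30 min and 1575 (13.7%) and 1109 (9.66%) at 1 h. All these times were set against the same 0 min libraries. Set directly against 10 min, which uses other libraries than 0 min, the 20 min introns were higher for 1391 genes (12.1%) and lower for 941 (8.18%).

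Xkr8 and Nr1d1 were among the genes already called at 10 min. Xkr8 changed by 1.31 at 10 min, 2.65 at 20 min, 2.78 at 30 min and 2.93 at 1 h, and Nr1d1 by 0.995, 2.61, 2.80 and 2.64 at the same times. P2ry2 introns were at 45.3, 30.8 and 42.9 at 10 min, against 46.4, 25.7 and 31.1 at 0 min, a change of 0.22 that did not pass, and 20 min stood 2.29 ± 0.20 above 10 min. Dgat2 (0.33) and Max (0.10) likewise had no call at 10 min, and stood 1.53 ± 0.11 and 0.83 ± 0.07 above 10 min at 20 min. Rrp9 was called at 10 min (0.79) and stood 0.88 ± 0.10 higher again at 20 min. Odc1 had a change of 0.42 at 10 min that missed the test, and 20 min stood 0.07 ± 0.12 above 10 min. Among the falls Ccng2 changed by -0.01 at 10 min, -1.0 at 20 min, -1.46 at 30 min and -1.70 at 1 h, and Nusap1 by -0.19, -0.96, -1.48 and -1.49. From 20 to 30 min Nusap1 fell by a further 0.52 (limma adjusted p = 0.000232).

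**Figure D4:**
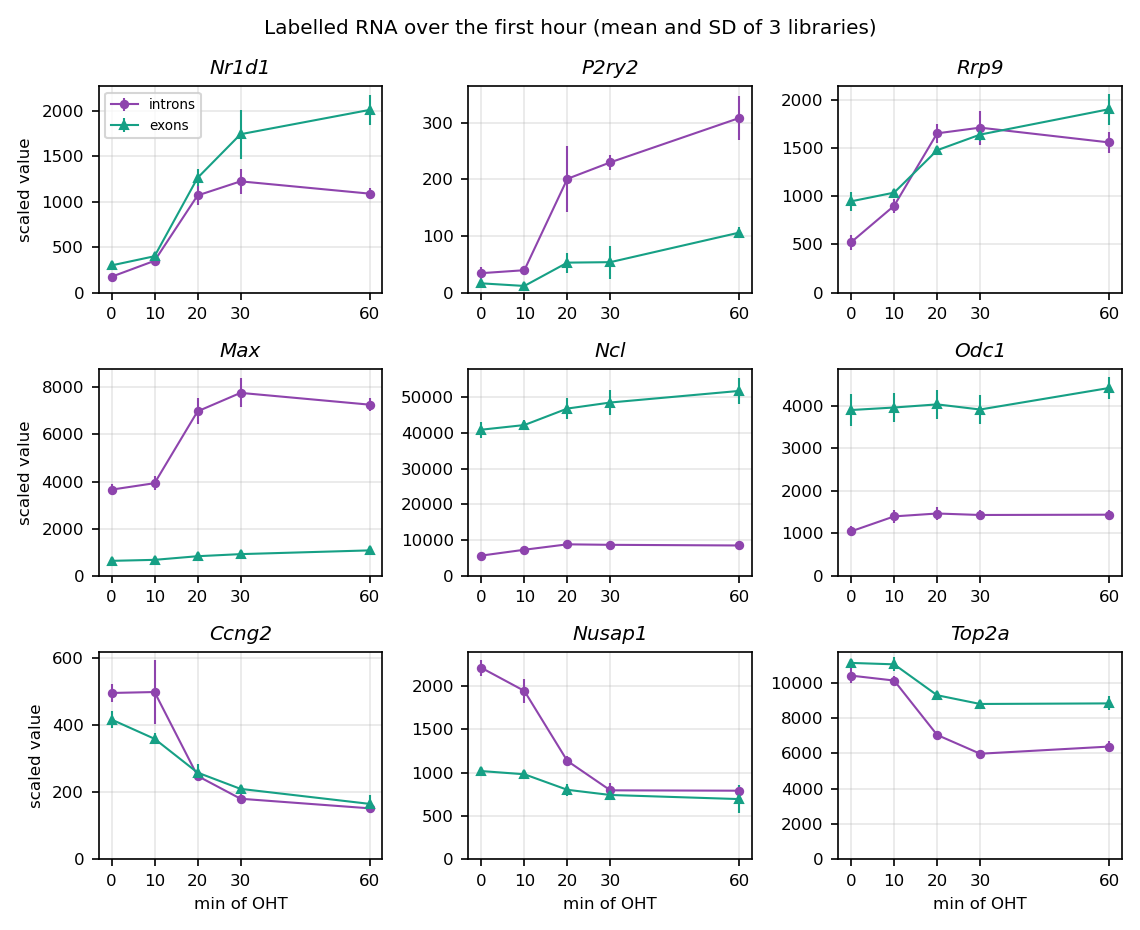
Scaled values of 9 genes in labelled introns (circles) and exons (triangles) over the first hour of OHT, as mean and SD of 3 libraries at each time. Mean intron values of Max stand at 6982 at 20 min beside 7266 at 1 h and those of Nr1d1 at 1068 beside 1088, while those of Nusap1 are 1943 at 10 min, 1134 at 20 min and 794 at 30 min.

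Total RNA at the same times was sequenced in 6 other libraries. Introns of total RNA were higher for 878 of 11461 genes (7.66%) and lower for 446 (3.89%). Of the 1904 genes higher in labelled introns 800 were also higher there, which is 42% of the labelled and 91.1% of the total list. Of the 1565 lower ones 342 were, which is 21.9% of the labelled and 76.7% of the total list. No gene was called in opposite directions, and the sign was the same for 96% of the higher and 94.8% of the lower labelled calls. Lower calls in total introns were 250, 268, 276 and 252 without replicate 2 or 3 of total 20 min or replicate 1 or 2 of total 0 min, and the deposited values without scaling gave 825 higher and 249 lower.

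Nr1d1 introns in total RNA had 538, 555 and 625 at 20 min, against 111, 132 and 84.5 at 0 min (log2 change 2.40 ± 0.14), P2ry2 changed by 2.54 ± 0.30 and Ccng2 by -1.02 ± 0.17. Spry1 changed by 1.78 ± 0.20. Exons of total RNA had few calls: 5 genes were higher (0.0436%) and none lower by limma, with 432 genes at an unadjusted p under 0.05. They were Nr1d1, with 1179, 1396 and 1113 at 20 min, against 596, 498 and 365 at 0 min (log2 change 1.36 ± 0.14), Dusp2, with 300, 319 and 265 at 20 min, against 171, 161 and 128 at 0 min (0.94 ± 0.10), Spry1 at 0.71 ± 0.13, and the low genes Ttll9 and Astl, the last listed at 0 in all 3 libraries at 0 min. Ttll9 and Astl were named after their values were seen. The count was 8 higher and 14 lower without replicate 2 of total 20 min, 2 higher without replicate 3 of total 20 min, 3 without replicate 1 or 3 of total 0 min and 1 in a fit of the 6 libraries alone. Xkr8 and P2ry2 were not called in total exons, at 0.19 ± 0.06 and 0.15 ± 0.18.

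The share of genes called differed with gene length. Of 2504 genes with a span under 10 kb in the GENCODE M1 annotation of mm9, 17.4% were higher and 7.07% lower in introns. Between 10 and 20 kb it was 21.3% and 15.5%, between 20 and 50 kb 20% and 19.9%, and between 50 and 100 kb 13.7% and 17.4%. Of 1590 genes over 100 kb only 4.47% were higher and as many lower, and the SD of the log2 change over genes was 0.18 there, against 0.42 under 10 kb. Rises by a log2 change of at least 1 numbered 53 under 10 kb and 1 over 100 kb. Nr1d1 (7.4 kb), Xkr8 (7.6 kb), Rrp9 (9.5 kb) and Ccng2 (9.0 kb) are short, while Nusap1 spans 32.9 kb. Genes of similar mean value can be set apart by tertiles. In the upper tertile of mean value 28.8% were higher under 10 kb (73 genes), 48.7% from 10 to 20 kb and 4.97% over 100 kb, and in the middle tertile 32.1%, 23.7% and 3.73%. In the low tertile it was 11.2%, 8.0% and 2.88%. Lower genes over the same spans made up 1.37%, 4.87% and 4.43% in the upper tertile. In the middle tertile they made up 7.77%, 17.9% and 6.64%, with 31.1% from 20 to 50 kb. In the low tertile they made up 7.03%, 16.1% and 2.47%.

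**Figure D5:**
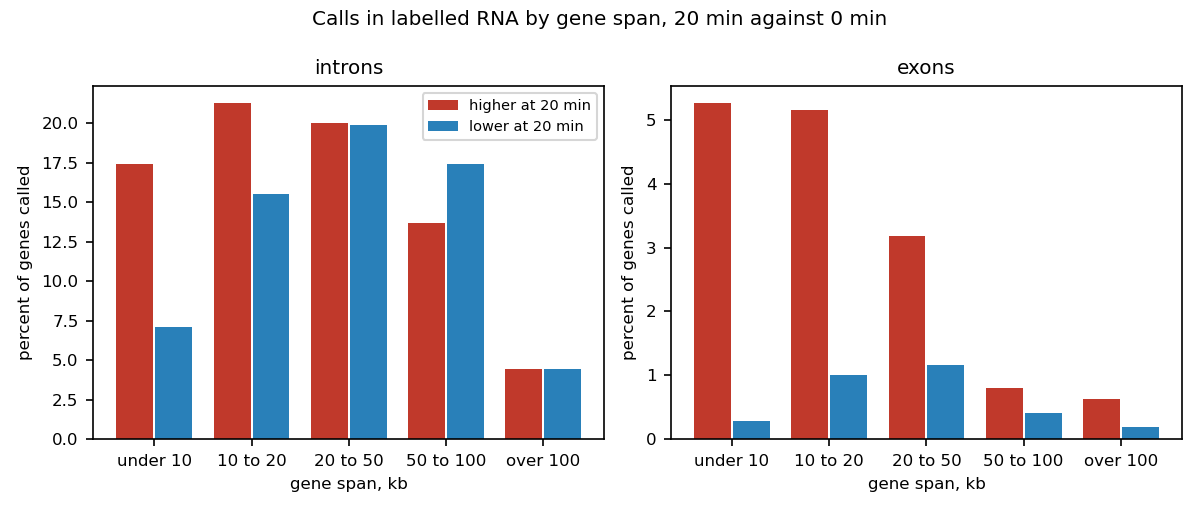
Percent of genes called higher and lower at 20 min against 0 min by gene span, in labelled introns (left) and exons (right). Intron calls in both directions are rarest over 100 kb, at 4.47% each, and exon rises go from 5.27% under 10 kb to 0.629% over 100 kb.

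The E-box and its CACGCG variant were found in a larger share of the promoters of higher genes than of lower genes. Promoter windows were matched for 9210 of the tested genes, and 4 motifs were searched on both strands. They were CACGTG and its variants CACGCG and CACATG, and the CREB site TGACGTCA, of which none contains another, though neighbouring matches can share bases at their ends. CACGTG was found for 15.0% of the genes higher in introns, 9.53% of the lower, 12.1% of all tested and 8.09% of the whole promoter table. CACGCG was found for 29.9% of the higher, 15.5% of the lower and 20.4% of all tested. CACATG was found for 9.74%, 9.69% and 10.3% of the same groups, and TGACGTCA for 2.92%, 4.06% and 3.56%. The median GC content of the windows was 63.7% for the higher genes, 59.3% for the lower and 61.0% for all tested. Its part in the shares of the GC-rich motifs was not tested. No share was tested, and a match is a description of letters, not of binding.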

How the data were processed

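Reads were aligned with TopHat2 2.0.8 to mm9, per the submitters' processing notes, and the labels do not give the counter, its annotation or its use of strand. Introns and exons of 11513 genes have 1 deposited value per library. The deposited whole numbers are a rescaled score rather than raw counts: some whole numbers are nearly missing in 13 of 66 libraries, so the depth behind a value is unknown and no counting interval is given. The deposited RPKM values equal them times a constant per gene (largest deviation 0.966%) and give levels only. A count model was to be used only on raw counts, so limma on log2 values was used instead. Replicates of a group had identical values in 0.895% to 1.16% of genes.

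From these, each table of 33 libraries was rescaled with trimmed means (log ratios) between libraries. To be kept, a gene needed 3 libraries at 10 or above. The log2(value + 1) was fitted with 1 mean per time in limma 3.58.1 (R 4.3.3), whose moderated test is two-sided. A fold change on this scale understates that of low genes. Intron to exon ratios used log2((intron + 2)/(exon + 2)), centred on the median of each library. Calls have a Benjamini-Hochberg adjusted p under 0.05 over all genes. The procedure was tested on simulated data. Alternatives were library sums, no further scaling, a pseudocount of 5, no filter, the 6 libraries alone, a replicate term and leaving out each library. Figures were drawn with matplotlib 3.10.9.

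Named genes are the 12 called rises and 12 called falls in introns, and 6 and 6 in exons, that are largest, given no overlap between groups, a mean scaled value in the higher group of 50 or more and a curated symbol. To these come up to 3 members per gene list by smallest p, and 14 genes always named, of which Jun is not reported. A result that the rule would name is also not reported here. Other list members given beside them were picked after their values were seen. The comparison, its members and the 40 gene lists were chosen with earlier results of these data known. Gene spans are from GENCODE M1 on mm9, and 99.2% of genes were matched. Promoters are from RefSeq on GRCm38.p6 and served for sequence only.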

Additional observations from a re-analysis of the deposited data

Results flagged for a closer look

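Max was flagged because its 20 min exon values lay above those at 0 min in labelled RNA and below them in total RNA. In labelled exons all 3 libraries at 20 min were above all 3 at 0 min, with a log2 change of 0.39 (0.3869 before rounding). In total exons Max had 2256, 2205 and 2086 at 20 min, against 2350, 2260 and 2391 at 0 min, a log2 change of -0.10 that was not called. Every 20 min library of total RNA was below every 0 min library. With 3 libraries per group such a separation can easily arise without a change, and the share of all genes that show it is not given here. The difference between the 2 kinds of RNA was not tested.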

How the results depend on the processing

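Depth is unknown and each group holds 3 libraries, so small changes of low genes are the least secure. A pseudocount of 5, no filter and library sums kept every count of calls within 1.5 times; the share of higher calls in introns was 54.9% with trimmed means, 45.1% with library sums and 60.9% with no further scaling, and the median of all genes moved by less than 0.1. Without further scaling labelled exons had 238 higher and 152 lower, total introns 825 higher and 249 lower and total exons 1 lower, beside main counts of 385, 78, 878, 446 and 0. The 6 libraries alone gave 154 higher and 29 lower ratio calls and 1 higher total exon call, from fewer libraries. Leaving out each library gave 1495 to 1840 higher and 1052 to 1511 lower in labelled introns, 220 to 374 and 29 to 89 in labelled exons, 450 to 745 and 95 to 227 in the ratio, 1114 to 1216 and 637 to 873 against 10 min, 633 to 730 and 250 to 368 in total introns, and 2 to 8 and 0 to 14 in total exons. Why a count moved was not tested, beyond the smaller number of libraries.

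Whether the same replicate number marks a shared origin is not known from the labels. The correlations of deviations within a number were 0.254, 0.084 and -0.193 in labelled introns and 0.197, 0.061 and -0.217 in labelled exons. With 3 libraries per group these values cannot decide it. With a replicate block labelled introns had 1984 higher and 1671 lower, labelled exons 443 and 103, the ratio 885 and 308, the comparison with 10 min 1479 and 1033, total introns 994 and 519 and total exons 6 and 0, and Bcl3 (adjusted p = 0.0375) and Rpl36 (0.0352) became called. Of 150 single-gene results library sums ended 5 calls (Rplp2, Gabpb2, Xbp1 and Fbln2 among them) and no further scaling 3 (Rplp2, Itga3 and Nsdhl). Leaving out 1 library turned the sign of 5 uncalled genes, which ranged from -0.023 to 0.2297 (Pecam1, lowest without replicate 1 of 20 min), -0.1138 to 0.3973 (Tnnt2, replicate 1 of 20 min), -0.285 to 0.35 (Erg, replicate 1 of 0 min, and -0.1572 without replicate 2 of 20 min), -0.0317 to 0.2032 (Myh11, replicate 3 of 20 min) and -0.0092 to 0.1436 (Myc, replicate 2 of 0 min).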

Other observations

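Zinc finger genes, grouped by symbol (Zfp, Zscan or Zkscan and a number, and Zik1, but not Zfp36) after the values were seen, were more often lower than higher. In labelled introns 94 of 284 tested members were lower (33.1%) and 26 higher (9.15%), beside 13.6% lower and 16.6% higher over all genes. Their median log2 change was -0.15, beside -0.01 over all genes. Library sums gave 101 lower and no further scaling 77. Many of these genes encode KRAB zinc finger repressors, which form a family of close relatives whose reads may be shared. The largest called falls were Zfp784 at -1.12, Zfp772 at -0.93 and Zfp14 at -0.93, and the largest called rises Zfp28 at 0.90, Zfp786 at 0.59 and Zfp655 at 0.57. In labelled exons 15 were lower (5.28%) and 8 higher (2.82%), beside 0.68% lower and 3.36% higher over all genes. In introns of total RNA 37 of 283 were lower (13.1%) and 12 higher (4.24%), beside 3.89% lower and 7.66% higher over all genes there.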
